A study of Mus musculus with 6 samples.

Results

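Transcript levels of 37 transcription factors and cofactors of hematopoietic stem cells (HSCs) were examined in HSCs with and without the tetraspan membrane protein Emp1. The members were taken as a fixed list of symbols, and each of the 37 matched 1 Ensembl identifier of the 55401 in the expression matrix, through GENCODE mouse annotation on GRCm38. The samples were 3 libraries of Emp1-ko HSCs, from Emp1fl/fl,Tie2-Cre mice, and 3 libraries of Emp1-fl HSCs, from Emp1fl/fl mice. Both genotypes carry floxed Emp1 alleles, and the Cre recombinase, driven by the Tie2 promoter that is active in endothelial and blood-forming cells, is present in the Emp1-ko mice. The deletion and the presence of Cre therefore cannot be told apart, and age, strain and pooling of animals are not given in the labels. Bone marrow cells were sorted as CD48- CD150+ cells of the lineage-negative, Sca-1+, c-Kit+ compartment, and their RNA was amplified by a low-input method before sequencing. Whether each library is a mouse of its own is not stated in the labels, and the p-values measure no more than the spread among these libraries, which may be technical.

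HSC identity rests on a group of transcription factors that bind the same regulatory regions and act on one another's genes. TAL1 or LYL1, LMO2 and LDB1 form a complex that is brought to DNA by GATA factors, RUNX proteins bind DNA with their partner CBFB, and the ETS factors ERG, FLI1 and PU.1 (Spi1) often bind beside them. Other members restrain division and keep self-renewal (PRDM16, HLF, MECOM, GFI1), while factors such as PU.1, C/EBPα, Ikaros and NF-E2 open the programs of mature lineages.

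The targeted gene stood at 0.58, 0.70 and 0.27 FPKM (fragments scaled to transcript length and to the library's total) in the Emp1-ko libraries, against 3.25, 2.64 and 4.32 FPKM in the Emp1-fl libraries. The genotypes did not overlap for Emp1, in the direction of the labels, with a log2 fold change of -1.53 (SE 0.25) and a limma adjusted p of 0.0577. Kit, which encodes the c-Kit of the sort, was present in all libraries, at 217 to 337 FPKM in Emp1-ko and 267 to 315 FPKM in Emp1-fl. Ly6a, which encodes the Sca-1 of the sort, did not overlap, at 62.6 to 81.2 FPKM in Emp1-ko and 89.2 to 97.2 FPKM in Emp1-fl. The transcript of CD48, against which the cells were sorted, was also found, at 22.9 to 47.3 FPKM in Emp1-ko and 26.1 to 49.6 FPKM in Emp1-fl. Of the 5 T and NK markers Nkg7 stood at 263 to 372 FPKM in Emp1-ko and 187 to 258 FPKM in Emp1-fl. The list's sum, nearly all of it Nkg7, did not overlap, at 266 to 375 FPKM in Emp1-ko and 191 to 261 FPKM in Emp1-fl. Cd3e, Cd3g, Cd3d and Klrb1c were at most 1.42, 0.45, 0.19 and 5.79 FPKM in any library, and the genotypes overlapped for each. Of the 5 endothelial markers Cdh5 was at most 0.64 FPKM, Flt1 at most 1.38 FPKM and Kdr at most 1.98 FPKM. Pecam1, which blood cells also express, stood at 40.9 to 53.4 FPKM in Emp1-ko and 39.8 to 47.8 FPKM in Emp1-fl. Emcn stood at 10.45 to 12.84 FPKM in Emp1-ko and 8.93 to 12.4 FPKM in Emp1-fl. The part of these markers in the members' values was not tested. The file holds no counts. In 5688 single-exon genes the commonest product of FPKM and exonic length in kilobases was between 0.0537 and 0.124, and if that value is 1 fragment, the libraries held about 8080000, 9880000 and 18600000 fragments in Emp1-ko and 10670000, 8080000 and 10670000 fragments in Emp1-fl. That reading was not tested, and no counting interval is given.

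Mean levels of the members ran from 0.695 FPKM for Gfi1 to 361 FPKM for Meis1. The mean over the 6 libraries was at least 100 FPKM for 8 members, from 10 to 100 FPKM for 21, from 1 to 10 FPKM for 5 and under 1 FPKM for 3, and 10 members lay in the top 10% of the 15723 genes tested. The homeobox factor Meis1, a HOX partner that maintains HSC quiescence, had the highest mean, with 292, 341 and 404 FPKM in Emp1-ko and 391.5, 382 and 355 FPKM in Emp1-fl libraries. Lmo2, the bridging protein of the TAL1 complex, and Nfe2, a basic leucine zipper factor of megakaryocyte and erythroid cells, followed, with means of 309.8 and 263 FPKM over the 6 libraries. FPKM is a value per length, so such levels can be set beside one another. Lmo2 ranged over 3.21-fold between libraries and Meis1 over 1.38-fold, and their ranges overlapped, so the order of the 2 is not beyond their spread.

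**Figure D1:**
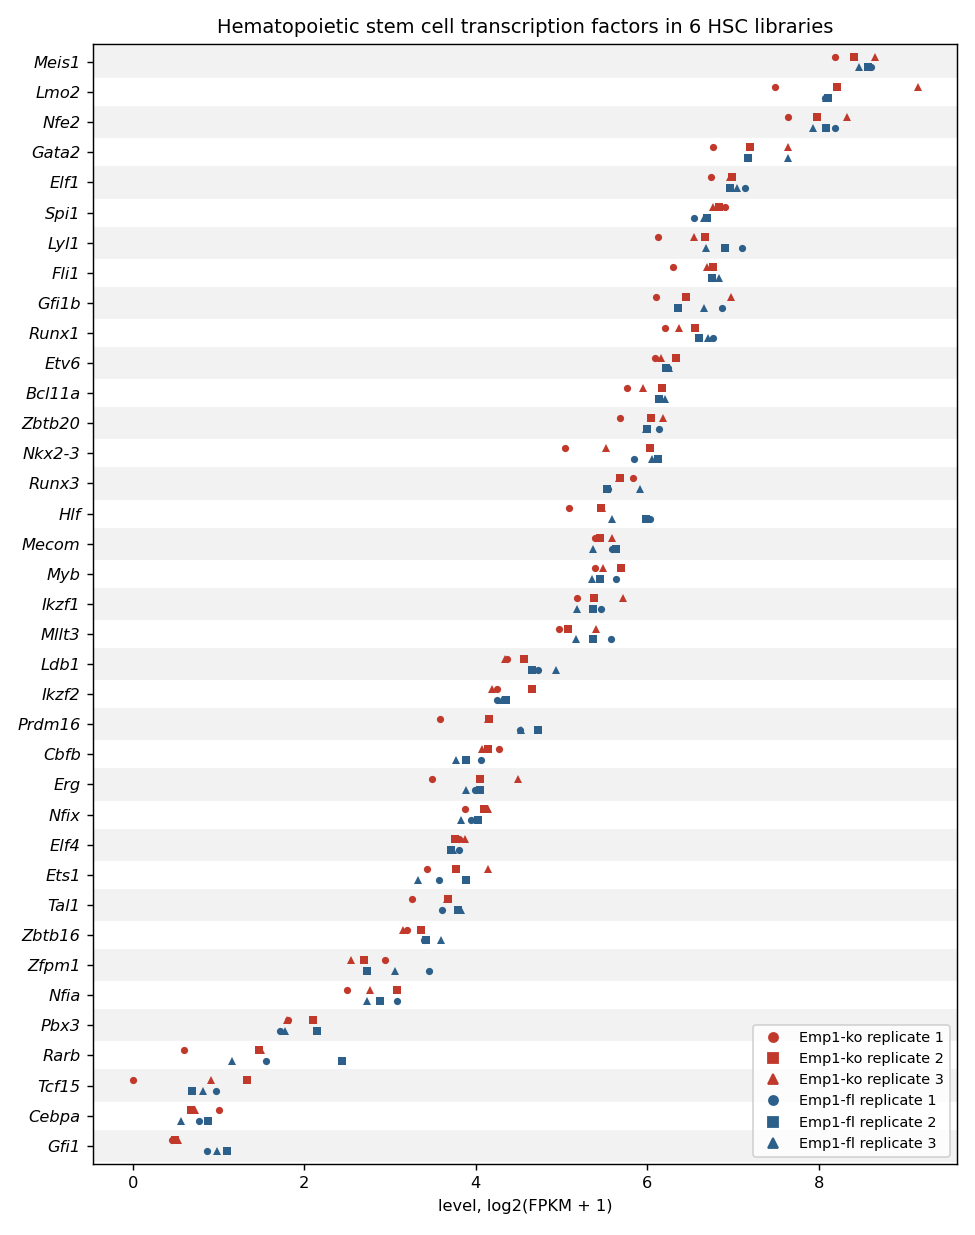
Level of each of the 37 members on the log2(FPKM + 1) scale, ordered by their mean over 6 libraries. Each symbol is 1 library (red, Emp1-ko; blue, Emp1-fl). Meis1, Lmo2 and Nfe2 lead and Gfi1 is last, and for many members the red circle, Emp1-ko replicate 1, is the lowest point.

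Differences between genotypes were fitted on log2(FPKM + 1) with limma across all 15723 genes that reached 1 FPKM in at least 3 libraries, with Benjamini-Hochberg adjustment over all of them. Of the members 34 were tested, and Tcf15, Cebpa and Gfi1 lay below the filter. By limma 0 of the 34 passed the adjusted p threshold of 0.05, where 42 of all genes tested did (0.267%). At an unadjusted p under 0.05, 5 members were lower (14.7% of 34, against 9.72% of all genes tested) and 0 were higher (against 6.5% of all genes). The 5 were Prdm16, Hlf, Runx1, Ldb1 and Lyl1, and the smallest adjusted p was 0.133. The log2 fold change of Emp1-ko over Emp1-fl was negative for 22 of 34 members (64.7%, against 56.9% of all genes), with a median of -0.12, against -0.046 over all genes tested.

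The genotypes did not overlap for 6 tested members that were lower in Emp1-ko (17.6%, against 13.2% of all genes) and for 2 that were higher (5.88%, against 8.91%). The lower ones were Lyl1, Runx1, Hlf, Ldb1, Prdm16 and Zbtb16, and the higher ones Spi1 and Cbfb. Gfi1, too low to be tested, did not overlap either and was lower in Emp1-ko. Both shares lay near those of all genes.

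**Figure D2:**
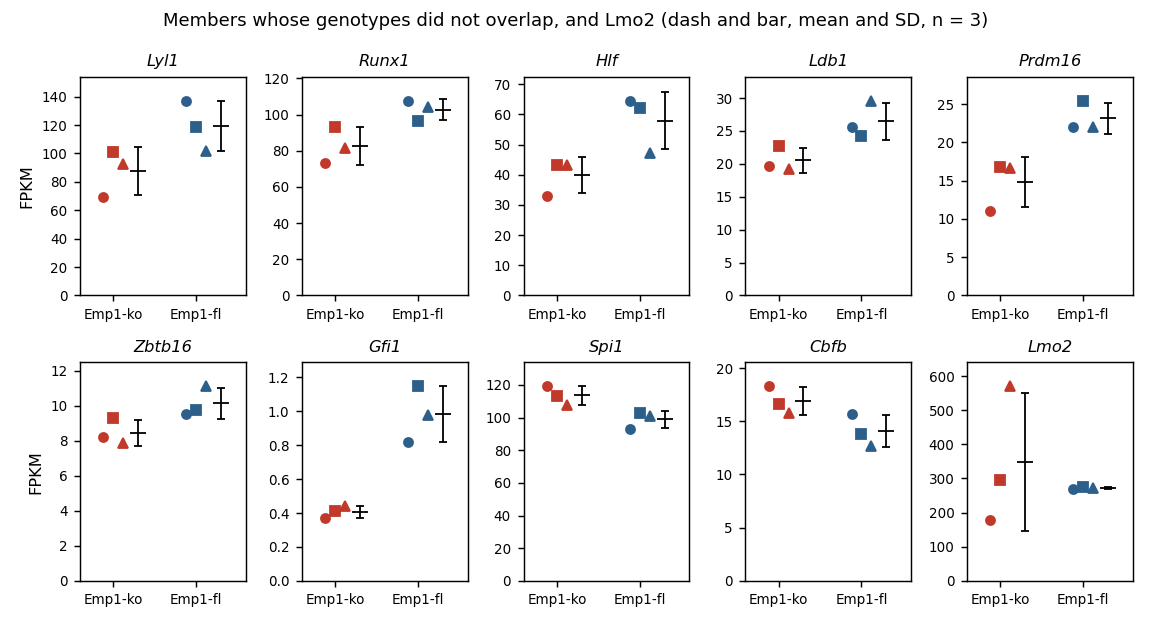
FPKM of the 9 members whose genotypes did not overlap, and of Lmo2, in each library (red, Emp1-ko; blue, Emp1-fl; circle, square and triangle, replicates 1, 2 and 3), with mean and SD of 3 libraries. Lyl1, Runx1, Hlf, Ldb1, Prdm16, Zbtb16 and Gfi1 were lower and Spi1 and Cbfb higher in every Emp1-ko library, while Lmo2 spread from 178 to 571.5 FPKM in Emp1-ko and lay within 268 to 274 FPKM in Emp1-fl.

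One library stood apart in these genes. In Emp1-ko replicate 1, 21 of the 34 tested members (61.8%) had their lowest value of the 6 libraries, while 24.0% of all genes tested did. The median member lay 0.29 below the mean of the 6 libraries on the log2 scale there, but 0.020 and 0.021 above it in Emp1-ko replicates 2 and 3, and at 0.079, 0.055 and -0.019 in the Emp1-fl libraries. The median over all genes was -0.016 in Emp1-ko replicate 1, so the low values were not shared by the bulk of genes. Emp1-ko replicate 3 was the other extreme, with the highest value of 10 members (29.4%, against 13.0% of all genes). For 7 members, Meis1, Lmo2, Nfe2, Gfi1b, Zbtb20, Ikzf1 and Erg, replicates 1 and 3 of the same genotype were the lowest and the highest of all 6 libraries (20.6%, against 2.79% of all genes).

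Without Emp1-ko replicate 1, 16 members were lower and 18 higher, with a median of 0.010, against -0.042 over all genes. Then Prdm16, Hlf and Ldb1 kept an unadjusted p under 0.05 and Lyl1 and Runx1 did not. The summed level of 10 HSC markers, of which Hlf and Mecom are members here, was also lowest in that library, at 734 FPKM, against 922 and 947 FPKM in the other Emp1-ko and 840 to 1030 FPKM in the Emp1-fl libraries. Progenitor granule genes were low there as well, with Mpo, which encodes myeloperoxidase, at 23.0 FPKM against 45.1 to 98.3 FPKM in the 5 others, and Elane, neutrophil elastase, at 5.70 FPKM against 18.8 to 42.8 FPKM. In Emp1-ko replicate 3 the late granule genes Camp and Ngp stood at 42.9 and 43.5 FPKM, against at most 8.84 and 9.26 FPKM in the 5 others. Ltf and S100a8 were also highest there, at 10.04 and 211.57 FPKM, against at most 2.26 and 188.75 FPKM. Ly6g, S100a9, Mpo and Elane, of the same 8 neutrophil markers, were not highest in that library. Ly6g was highest in Emp1-ko replicate 1 (1.06 FPKM) and lowest in replicate 3 (0.27 FPKM). S100a9 was highest in Emp1-fl replicate 3, at 78.15 FPKM. The sum of all 8 was 154, 153 and 453 FPKM in Emp1-ko and 263, 165 and 393 FPKM in Emp1-fl libraries. The part of these differences, and of depth, in the members' values was not tested. In bulk libraries fewer cells of a type and less RNA per cell cannot be told apart.

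**Figure D3:**
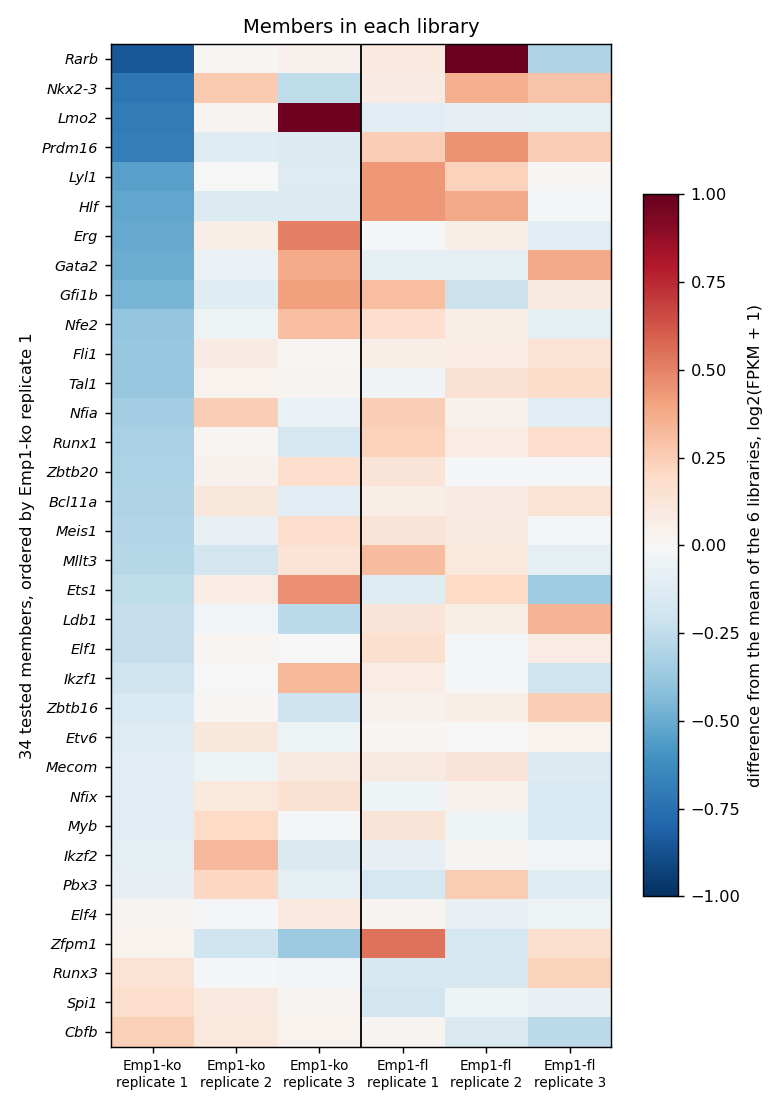
Difference of each of the 34 tested members from its mean over the 6 libraries, on the log2(FPKM + 1) scale (blue, below; red, above), with Emp1-ko libraries left of the line and Emp1-fl libraries right of it. Members run from the lowest to the highest value in Emp1-ko replicate 1, whose column is blue for most of them, with a median of -0.29.

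Promoter windows were taken from RefSeq (GRCm38.p6; 250 bases before to 50 after a start site, 5′ to 3′ on the gene's strand) and existed for 28 of the 37 members, in 45 windows. The windows of the 5 members with an unadjusted p under 0.05 are shown, at the start nearest the annotated gene start, because these genes carry the lower values in Emp1-ko. The proximal start of Runx1 is added. Capitals mark 4 core motifs, each searched on both strands. The RUNX core was TGTGGT. The GATA core was GATAA. The ETS core was CCGGAA. The E-box was CAGATG or CAGCTG. No matches overlapped one another in these windows.
Prdm16, chr4:154636824-154637123, minus strand: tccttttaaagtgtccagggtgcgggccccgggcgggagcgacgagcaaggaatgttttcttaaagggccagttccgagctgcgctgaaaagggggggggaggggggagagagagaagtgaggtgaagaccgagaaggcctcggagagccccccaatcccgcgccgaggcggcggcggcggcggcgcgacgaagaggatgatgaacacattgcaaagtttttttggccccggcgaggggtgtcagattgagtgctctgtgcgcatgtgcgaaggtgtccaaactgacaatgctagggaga
Hlf, chr11:90390868-90391167, minus strand: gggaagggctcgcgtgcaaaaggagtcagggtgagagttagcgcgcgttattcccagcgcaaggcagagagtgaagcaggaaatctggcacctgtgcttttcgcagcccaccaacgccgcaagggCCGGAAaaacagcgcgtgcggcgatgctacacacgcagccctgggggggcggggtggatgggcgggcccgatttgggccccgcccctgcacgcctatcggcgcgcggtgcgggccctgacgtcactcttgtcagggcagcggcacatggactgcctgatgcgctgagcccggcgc
Lyl1, chr8:84701207-84701506, plus strand: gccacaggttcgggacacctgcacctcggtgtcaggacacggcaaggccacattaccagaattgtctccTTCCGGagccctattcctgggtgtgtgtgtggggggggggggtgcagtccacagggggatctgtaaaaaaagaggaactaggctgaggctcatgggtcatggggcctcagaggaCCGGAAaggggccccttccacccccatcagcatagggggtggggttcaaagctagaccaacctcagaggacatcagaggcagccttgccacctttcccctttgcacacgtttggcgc
Ldb1, chr19:46045262-46045561, minus strand: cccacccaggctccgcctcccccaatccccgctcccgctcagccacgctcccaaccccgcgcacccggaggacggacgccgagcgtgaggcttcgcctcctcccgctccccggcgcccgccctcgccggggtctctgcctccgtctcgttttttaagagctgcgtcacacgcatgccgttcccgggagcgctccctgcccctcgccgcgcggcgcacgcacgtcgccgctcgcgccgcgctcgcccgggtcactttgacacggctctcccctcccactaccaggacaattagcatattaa
Runx1 distal, chr16:92826025-92826324, minus strand: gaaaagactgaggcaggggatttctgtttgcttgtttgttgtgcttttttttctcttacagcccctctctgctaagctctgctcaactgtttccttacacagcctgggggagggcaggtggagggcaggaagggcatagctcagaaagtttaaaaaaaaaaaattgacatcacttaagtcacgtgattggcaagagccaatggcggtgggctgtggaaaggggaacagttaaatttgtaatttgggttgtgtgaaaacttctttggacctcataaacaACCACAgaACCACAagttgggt
Runx1 proximal, chr16:92697280-92697579, minus strand: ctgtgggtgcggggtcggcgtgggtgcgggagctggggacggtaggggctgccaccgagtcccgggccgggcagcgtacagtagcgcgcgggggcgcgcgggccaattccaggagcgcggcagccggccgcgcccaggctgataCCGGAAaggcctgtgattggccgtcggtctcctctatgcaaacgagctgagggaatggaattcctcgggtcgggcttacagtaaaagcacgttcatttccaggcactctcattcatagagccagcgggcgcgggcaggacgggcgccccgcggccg

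The Lyl1 window held the ETS letters at 2 places, starting at -181 (as the reverse complement) and -67 from the start site (its own base is 1), and the Hlf and proximal Runx1 windows held them once, at -125 and -106. The distal Runx1 window held the RUNX letters at 2 places just after its start, at 29 and 37, as the reverse complement. The Prdm16 window and the Ldb1 window shown held none of the 4 motifs. Of the 2 other Ldb1 windows, at starts within the gene, the one at chr19:46037021-46037320 held the GATA letters at -240 and -200, both as the reverse complement. The letters are common: RUNX occurred in 6 of the members' 45 windows and in 16.8% of all 32851 windows, GATA in 9 and 25.4%, ETS in 5 and 14.9%, and the E-boxes in 10 and 30.6%. A match is a description of the letters and no evidence of binding, and the matrix gives 1 value per gene, so the distal and proximal transcripts of Runx1 are not separated.

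Among the factors of stem cell identity, 12 of 14 tested were lower in Emp1-ko and 2 higher, with a median log2 fold change of -0.16, where 56.9% of all genes tested were lower. Without Emp1-ko replicate 1, 9 were lower and 5 higher, with a median of -0.057. Prdm16 (chromosome 4, 154316125 to 154636873), a zinc-finger histone methyltransferase needed for HSC maintenance, stood at 11.0, 16.8 and 16.6 FPKM in Emp1-ko and at 22.0, 25.5 and 22.0 FPKM in Emp1-fl libraries. Every Emp1-ko value lay below every Emp1-fl value, and replicate 1 was the lowest. The means were 14.8 ± 3.29 FPKM in Emp1-ko and 23.2 ± 2.01 FPKM in Emp1-fl (SD, n = 3 each), a ratio of 0.640. The log2 fold change was -0.63 (SE 0.17; unadjusted 95% interval -1.01 to -0.25), which did not pass with a limma adjusted p of 0.133. Hlf (chromosome 11, 90336536 to 90390895), a PAR-domain leucine zipper factor that marks HSCs and restrains their cycling, stood at 32.9, 43.2 and 43.3 FPKM in Emp1-ko, against 64.6, 62.2 and 47.1 FPKM in Emp1-fl. Its gap between genotypes was narrow, from 43.3 to 47.1 FPKM, and the difference was -0.53 (SE 0.15, limma adjusted p = 0.153).

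Nkx2-3, a homeobox gene also known from spleen development, had 32.0, 64.3 and 44.8 FPKM in Emp1-ko and 56.7, 68.9 and 65.5 FPKM in Emp1-fl libraries. Replicates 1 and 3 lay below the Emp1-fl range and replicate 2 within it (log2 fold change -0.48, SE 0.23, limma adjusted p = 0.366). The value was -0.24 without Emp1-ko replicate 1 and -0.73 without Emp1-ko replicate 2. Zbtb16 (PLZF), a repressor that limits HSC cycling, stood at 8.22, 9.30 and 7.86 FPKM in Emp1-ko, against 9.52, 9.73 and 11.1 FPKM in Emp1-fl. The genotypes did not overlap, but the gap was 9.30 to 9.52 FPKM and the limma adjusted p was 0.456. Mllt3, which reads histone acylation and supports HSC self-renewal, averaged 34.8 ± 5.65 FPKM in Emp1-ko and 40.7 ± 5.88 FPKM in Emp1-fl, and Bcl11a, a repressor of fetal globin genes with a role in HSCs, 61.8 ± 9.06 FPKM in Emp1-ko and 70.5 ± 2.16 FPKM in Emp1-fl (SD, n = 3 each). Both overlapped.

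Several central factors lay close to a ratio of 1. Mecom, the zinc-finger factor EVI1 that long-term HSCs require, stood at 40.9, 42.8 and 47.3 FPKM in Emp1-ko and at 47.3, 48.7 and 40.3 FPKM in Emp1-fl libraries, with a log2 fold change of -0.053 and an unadjusted 95% interval of -0.30 to 0.20. The interval for Meis1 was -0.43 to 0.17. Gata2, which is required for HSC emergence and survival, spread as widely within as between genotypes, with 108, 146 and 199 FPKM in Emp1-ko and 144, 143.5 and 199.7 FPKM in Emp1-fl libraries. Its interval, -0.67 to 0.42, leaves room for a difference in either direction. Zbtb20, a BTB zinc-finger repressor, averaged 62.3 FPKM in Emp1-ko and 64.7 FPKM in Emp1-fl. Of the nuclear factor I genes, Nfix averaged 15.4 FPKM in Emp1-ko and 14.3 FPKM in Emp1-fl, and Nfia 5.99 FPKM in Emp1-ko and 6.50 FPKM in Emp1-fl. Exons of Nfix overlap those of Lyl1 and of G430095P16Rik on the other strand. The second of these stood at 66.5, 50.04 and 60.8 FPKM in Emp1-ko and 46.3, 47.6 and 42.7 FPKM in Emp1-fl, above Nfix, and its reads may not be fully separated from those of Nfix. Pbx3, a TALE homeobox partner of MEIS1, averaged 2.76 FPKM in Emp1-ko and 2.71 FPKM in Emp1-fl. Rarb, a retinoic acid receptor, was low and uneven at 0.52, 1.77 and 1.83 FPKM in Emp1-ko and 1.93, 4.44 and 1.23 FPKM in Emp1-fl libraries. Exons of Rarb overlap those of Top2b on the other strand, at 14.2 to 19.7 FPKM in Emp1-ko and 13.5 to 17.2 FPKM in Emp1-fl. Reads of Top2b may not be fully separated from those of Rarb. Tcf15, a helix-loop-helix factor tied to HSC quiescence, was listed at 0, 1.51 and 0.88 FPKM in Emp1-ko, against 0.96, 0.62 and 0.76 FPKM in Emp1-fl. That corresponds to at most about 16 fragments per library by the estimate above, and no fold is given.

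Of the TAL1 complex, 3 of 4 genes were lower. Lyl1 (chromosome 8, 84701457 to 84704715), the helix-loop-helix relative of TAL1 that can stand in for it in adult HSCs, stood at 69.1, 101 and 92.8 FPKM in Emp1-ko and at 137, 119 and 102 FPKM in Emp1-fl libraries. The highest Emp1-ko value was 101.1 FPKM and the lowest Emp1-fl value 102.0 FPKM, so the genotypes only just separated. The log2 fold change was -0.45 (SE 0.16, limma adjusted p = 0.222), and -0.29 without Emp1-ko replicate 1. Tal1 itself averaged 10.7 ± 1.82 FPKM in Emp1-ko and 12.4 ± 1.07 FPKM in Emp1-fl (SD, n = 3 each) with overlap. Ldb1 (chromosome 19, 46031570 to 46045214), whose protein joins the complex into dimers that bridge enhancers and promoters, had 19.7, 22.7 and 19.2 FPKM in Emp1-ko, against 25.5, 24.2 and 29.6 FPKM in Emp1-fl. Here the low values were not confined to 1 library, and the difference was -0.35 (SE 0.12, limma adjusted p = 0.220) and -0.32 without Emp1-ko replicate 1. Exons of Ldb1 overlap those of Pprc1 on the other strand, at 23.5, 28.0 and 24.0 FPKM in Emp1-ko and 27.4, 24.1 and 31.6 FPKM in Emp1-fl. The strand setting of the counting is not given, so reads of the 2 genes may not be fully separated.

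Lmo2 showed the widest contrast in spread between genotypes. It stood at 178, 295 and 571.5 FPKM in Emp1-ko and at 268, 274 and 271 FPKM in Emp1-fl libraries. Emp1-ko replicate 1 lay below and replicates 2 and 3 above the 3 closely grouped Emp1-fl values. The coefficient of variation was 58.0% in Emp1-ko and 1.10% in Emp1-fl, and the log2 fold change of 0.20 had an SE of 0.43. Without Emp1-ko replicate 1 it was 0.60, and without replicate 3 it was -0.24, so 1 library sets its direction. Over the 34 tested members the median coefficient of variation was 16.4% in Emp1-ko and 9.49% in Emp1-fl, and over all genes tested 16.0% in Emp1-ko and 13.7% in Emp1-fl. The SD of the log2 value was larger in Emp1-ko for 25 of 34 members (73.5%, against 56.2% of all genes), and in 9 members the Emp1-ko range enclosed the Emp1-fl range (26.5%, against 16.7%). The difference in spread was not tested.

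The core binding factor genes stood on both sides of 0. Runx1 (chromosome 16, 92601466 to 92826149), essential for the emergence of HSCs, stood at 73.0, 93.4 and 81.5 FPKM in Emp1-ko and at 108, 96.6 and 104 FPKM in Emp1-fl libraries, without overlap (log2 fold change -0.32, SE 0.11, limma adjusted p = 0.217). Cbfb (chromosome 8, 105170674 to 105217989), the partner that steadies RUNX proteins on DNA, stood higher, with 18.3, 16.6 and 15.8 FPKM in Emp1-ko against 15.7, 13.8 and 12.7 FPKM in Emp1-fl. Its gap was only 15.7 to 15.8 FPKM and the difference 0.25 (SE 0.13, limma adjusted p = 0.376). Runx3, a RUNX paralog with roles in T cells and in HSC ageing, averaged 52.1 ± 3.54 FPKM in Emp1-ko and 50.1 ± 8.07 FPKM in Emp1-fl (SD, n = 3 each). No test of Runx1 against Cbfb was made, and neither passed on its own.

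Among the 7 ETS genes 3 were lower and 4 higher, with a median log2 fold change of 0.037. Spi1 (chromosome 2, 91082390 to 91115756), which encodes PU.1, the dose-sensitive driver of myeloid and B cell fate, stood at 119, 113 and 108 FPKM in Emp1-ko and at 92.9, 103 and 101 FPKM in Emp1-fl libraries. The genotypes did not overlap, the means were 113.6 ± 5.77 FPKM in Emp1-ko and 98.9 ± 5.32 FPKM in Emp1-fl (SD, n = 3 each) and the log2 fold change 0.20 (SE 0.093, limma adjusted p = 0.338). Spi1 had its highest value in Emp1-ko replicate 1, the library in which most members were lowest. Fli1 and Erg, ETS factors of HSCs and megakaryocytes and of endothelium, showed that library's low values: Fli1 had 78.1, 108 and 103 FPKM in Emp1-ko against 107, 107 and 113 FPKM in Emp1-fl, and Erg 10.3, 15.6 and 21.6 FPKM in Emp1-ko against 14.9, 15.6 and 13.9 FPKM in Emp1-fl. Etv6, a repressor required by adult HSCs, ranged over 1.19-fold across the 6 libraries, with means of 72.4 FPKM in Emp1-ko and 74.6 FPKM in Emp1-fl and an unadjusted 95% interval of the log2 fold change of -0.26 to 0.17. Elf4, which promotes HSC cycling, averaged 13.1 FPKM in Emp1-ko and 12.5 FPKM in Emp1-fl. Its relative Elf1 averaged 119 FPKM in Emp1-ko and 132 FPKM in Emp1-fl, and Ets1, better known from lymphocytes, 13.1 FPKM in Emp1-ko and 11.3 FPKM in Emp1-fl.

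**Figure D4:**
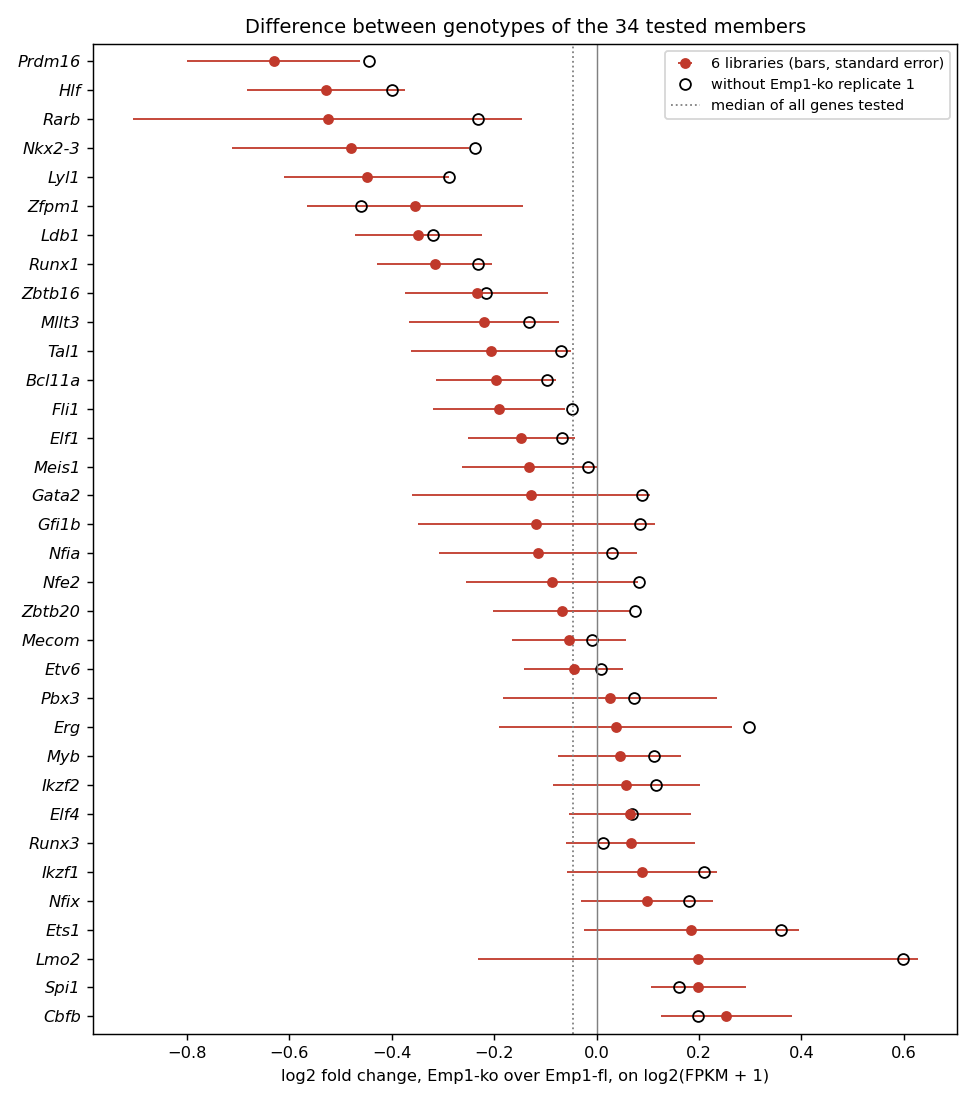
Log2 fold change of Emp1-ko over Emp1-fl for the 34 tested members, from limma on log2(FPKM + 1). Filled points and bars are the estimate and its standard error from 6 libraries, and open circles are the estimate without Emp1-ko replicate 1. Prdm16 and Hlf lie lowest at -0.63 and -0.53, and with that library left out the members centre on 0 (median 0.010).

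The paired zinc-finger repressors Gfi1 and Gfi1b differed in level by about 2 orders of magnitude. Gfi1b, which limits HSC expansion and serves megakaryocyte and erythroid cells, stood at 67.9, 86.6 and 125 FPKM in Emp1-ko and at 116, 81.1 and 100.5 FPKM in Emp1-fl libraries, with overlap. Gfi1, which restrains HSC proliferation and directs granulocyte fate, had 0.37, 0.41 and 0.44 FPKM in Emp1-ko, against 0.82, 1.15 and 0.98 FPKM in Emp1-fl. The genotypes were clear of each other, at a ratio of 0.414. These values correspond to about 10, 13 and 26 fragments in Emp1-ko and 28, 30 and 33 fragments in Emp1-fl by the estimate above. Gfi1 did not reach the filter, so it has no test in the fit reported here. In both alternative settings that admitted all 37 members, 0 passed. Exons of Gfi1 overlap A430072P03Rik on the other strand, which was listed at 0.26 to 1.24 FPKM in Emp1-ko and 0.64 to 1.30 FPKM in Emp1-fl.

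Of the lineage-priming factors, 2 of the 5 tested were lower and 3 higher, and the genotypes of each of the 5 overlapped. Zfpm1 (FOG-1), the GATA cofactor of megakaryocyte and erythroid cells, had 6.67, 5.51 and 4.82 FPKM in Emp1-ko and 9.94, 5.64 and 7.36 FPKM in Emp1-fl libraries. Nfe2 averaged 257 ± 61.2 FPKM in Emp1-ko and 269 ± 24.7 FPKM in Emp1-fl, Ikzf1 (Ikaros), needed for lymphoid priming, 42.5 ± 8.24 FPKM in Emp1-ko and 39.6 ± 3.87 FPKM in Emp1-fl, and its relative Ikzf2 (Helios) 19.8 ± 3.82 FPKM in Emp1-ko and 18.8 ± 0.765 FPKM in Emp1-fl (SD, n = 3 each). Myb, required for definitive hematopoiesis, averaged 45.2 ± 5.20 FPKM in Emp1-ko and 43.7 ± 4.49 FPKM in Emp1-fl. Cebpa, the granulocyte and monocyte factor, stayed near the limit of detection at 1.01, 0.60 and 0.65 FPKM in Emp1-ko, against 0.71, 0.84 and 0.48 FPKM in Emp1-fl.

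Of 56 cofactors and paralogs of the members, 48 were tested. By limma 0 passed the adjusted p threshold in either direction, where 0.267% of all genes tested did. On each side of 0 lay 24, where 56.9% of all genes tested were lower. The unadjusted limma p was under 0.05 for 4 higher and 5 lower, against 6.5% and 9.72% of all genes tested. The genotypes did not overlap for 5 higher and 6 lower, against 8.91% and 13.2% of all genes tested. Nfic, a nuclear factor I paralog of Nfix and Nfia, came closest to the adjusted p threshold. It had 52.9, 54.6 and 50.9 FPKM in Emp1-ko and 75.1, 74.4 and 79.1 FPKM in Emp1-fl libraries. The spread within each genotype was small beside the gap (log2 fold change -0.52, SE 0.088, limma adjusted p = 0.0598). It passed in 3 of 15 alternative settings, with adjusted p between 0.0209 and 0.239 over all of them. Ikzf4 (Eos), an Ikaros paralog, was low at 1.08, 1.70 and 2.04 FPKM in Emp1-ko, against 4.34, 3.62 and 3.33 FPKM in Emp1-fl. Id2, an inhibitor that sequesters the E protein partners of TAL1 and LYL1, had 42.2, 42.0 and 35.1 FPKM in Emp1-ko against 21.2, 26.9 and 31.7 FPKM in Emp1-fl, without overlap (0.58, SE 0.15, limma adjusted p = 0.130). Id3, named after its values were seen, had 242, 234 and 196 FPKM in Emp1-ko against 90.2, 99.6 and 178 FPKM in Emp1-fl (0.93, limma adjusted p = 0.154), with Emp1-fl replicate 3 close to the Emp1-ko values. It passed in 1 of 15 alternative settings, the one without that replicate (1.23, limma adjusted p = 0.0281). Id1, likewise named afterwards, overlapped, with 161, 284 and 183 FPKM in Emp1-ko against 106, 144 and 172 FPKM in Emp1-fl. Elf2, an ETS paralog of Elf1 and Elf4, stood at 108, 101 and 87.4 FPKM in Emp1-ko, against 66.0, 68.1 and 84.8 FPKM in Emp1-fl.

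**Figure D5:**
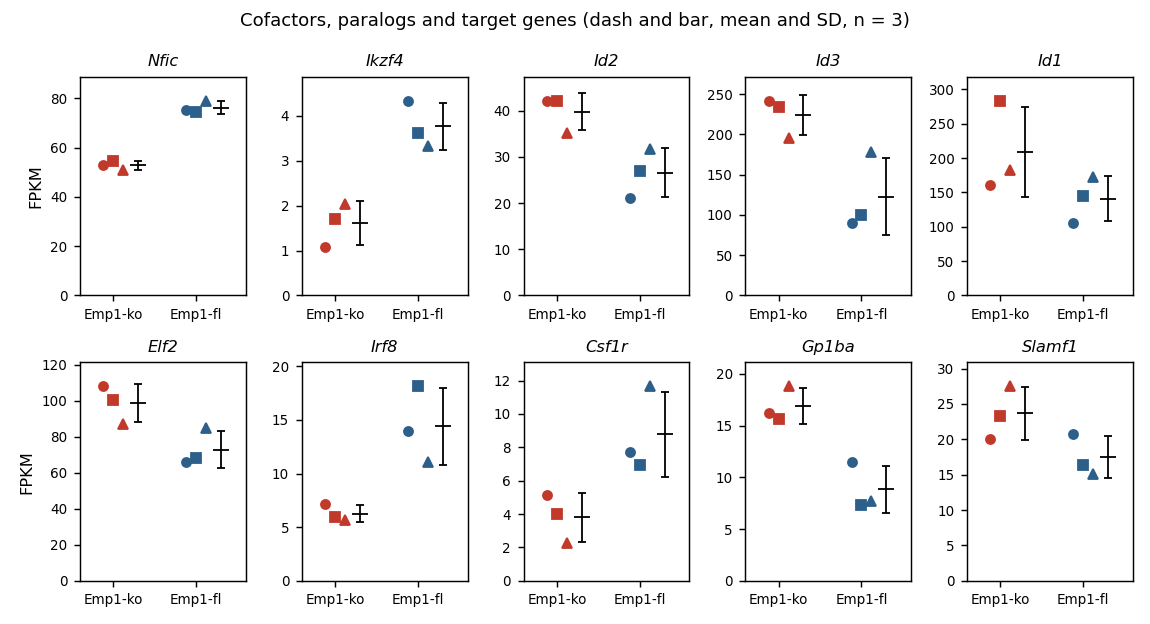
FPKM of cofactors, paralogs, target genes and the lineage factor Irf8 in each library (red, Emp1-ko; blue, Emp1-fl; circle, square and triangle, replicates 1, 2 and 3), with mean and SD of 3 libraries. Nfic, Ikzf4, Irf8 and Csf1r were lower and Id2, Id3, Elf2 and Gp1ba higher in every Emp1-ko library, while Id1 and Slamf1 overlapped.

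Of 26 genes known as targets of these factors, 25 were tested. By limma 0 of them passed the adjusted p threshold in either direction, where 0.267% of all genes tested did. The unadjusted limma p was under 0.05 for 2 higher and 1 lower, against 6.5% and 9.72% of all genes tested. Of the 25, 19 were lower and 6 higher, with a median log2 fold change of -0.042, where 56.9% of all genes tested were lower. Gp1ba, a platelet glycoprotein gene of the GATA, FLI1 and FOG-1 program, stood at 16.2, 15.6 and 18.9 FPKM in Emp1-ko and at 11.5, 7.34 and 7.69 FPKM in Emp1-fl libraries (0.88, SE 0.18, limma adjusted p = 0.0796). Other genes of that program overlapped, with Itga2b at 221 FPKM in Emp1-ko and 230.1 FPKM in Emp1-fl on average and Pf4 at 361 FPKM in Emp1-ko and 356 FPKM in Emp1-fl. Gp9, named after its values were seen, averaged 76.2 FPKM in Emp1-ko and 82.1 FPKM in Emp1-fl. Csf1r, a classic target of PU.1 and RUNX1, had 5.15, 4.03 and 2.24 FPKM in Emp1-ko, against 7.72, 6.92 and 11.7 FPKM in Emp1-fl (-1.04, SE 0.27, limma adjusted p = 0.124). Csf1r is also a marker of monocytes and macrophages, whose 6 marker genes summed to 291 to 326 FPKM in Emp1-ko and 304 to 345 FPKM in Emp1-fl, mostly Lyz2. Of the same list Adgre1, a macrophage marker, stood at 4.89, 1.66 and 2.20 FPKM in Emp1-ko and 5.27, 4.57 and 8.04 FPKM in Emp1-fl. By mean 4 of the 6 markers were lower in Emp1-ko. The others were higher, Cd68 at 32.5 FPKM in Emp1-ko and 31.1 FPKM in Emp1-fl, and Itgam at 5.62 and 5.17 FPKM. The part of monocytes and macrophages in the Csf1r values was not tested. Slamf1, which encodes CD150, averaged 23.7 ± 3.75 FPKM in Emp1-ko and 17.4 ± 2.96 FPKM in Emp1-fl (SD, n = 3 each).

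Factors of mature lineages lay mostly below the filter. Of 20 such genes 8 were tested, and by limma 0 passed the adjusted p threshold in either direction, where 0.267% of all genes tested did. The unadjusted limma p was under 0.05 for 1 higher and 1 lower, against 6.5% and 9.72% of all genes tested. Of the 8, 7 were lower and 1 higher, with a median log2 fold change of -0.21, where 56.9% of all genes tested were lower. The B cell factor Pax5 averaged 0.36 FPKM in Emp1-ko and 0.22 FPKM in Emp1-fl, and Ebf1 0.77 FPKM in Emp1-ko and 0.70 FPKM in Emp1-fl. Irf8, which directs monocyte and dendritic cell fate together with PU.1, stood at 7.15, 5.94 and 5.66 FPKM in Emp1-ko and at 13.9, 18.2 and 11.1 FPKM in Emp1-fl libraries. The genotypes did not overlap, and the difference of -1.07 (SE 0.19) had a limma adjusted p of 0.0661. It passed in 3 of 15 alternative settings, with adjusted p between 0.0195 and 0.240 over all of them. The erythroid factor Gata1 averaged 61.3 FPKM in Emp1-ko and 63.6 FPKM in Emp1-fl, and Klf1 19.8 FPKM in Emp1-ko and 20.5 FPKM in Emp1-fl. Of 5 basophil and mast cell markers, genes of a lineage in which Gata2 also acts, Fcer1a stood at 43.8 to 56.5 FPKM in Emp1-ko against 10.3 to 24.2 FPKM in Emp1-fl. Ms4a2 was lower in every Emp1-ko library, at 1.44, 1.44 and 1.6 FPKM in Emp1-ko and 2.55, 1.89 and 2.77 FPKM in Emp1-fl. The sum of all 5 was 66.1 to 74.9 FPKM in Emp1-ko against 23.8 to 47.3 FPKM in Emp1-fl, and without Fcer1a it overlapped, at 18.4 to 24.8 FPKM in Emp1-ko and 13.5 to 23.4 FPKM in Emp1-fl. The part of basophil and mast cell markers in the members' values was not tested.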

How the data were processed

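The authors' deposited values were FPKM per gene, with 2 decimals, for 6 libraries. The build mm10 and the tools HTSeq, DESeq2, Cufflinks 2.1.1 and Bowtie 0.12.9 are named, per the submitters' processing notes, with no role or order. Which of them made the FPKM is therefore unknown here. Per the labels' protocols, RNA was amplified by Geo-seq and tagged with a transposase kit, and amplification of little RNA can add scatter. FPKM is relative to each library's total.

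Symbols, positions and exonic lengths came from GENCODE M21 on GRCm38, the assembly mm10 denotes (55141 identifiers matched, 260 did not). Genes that reached 1 FPKM in 3 or more libraries were fitted on log2(FPKM + 1) in limma 3.58.1 (R 4.3.3, trend and robust, two-sided, genotype as the only term), with Benjamini-Hochberg adjustment over all 15723. On this scale changes of genes near 1 FPKM are understated. The fit was tested on simulated data with normal noise, with changes set in genes of mean log2(FPKM + 1) of at least 2.5. It found 70.5% of log2 changes of 1 and 95.45% of changes of 2, and 4.44% of its calls were false. Smaller changes were not simulated, and the largest log2 fold change of a tested member was -0.63, for Prdm16.

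The members, lists and tests were chosen with earlier results of these data known. The rule for named genes took all members, Emp1, up to 4 genes with the smallest p of each related list and up to 2 of the highest of each marker list. Genes outside it are said to be so or serve as marker values. Alternatives varied the pseudocount, filter, scaling, weights, block and libraries. Values of some genes in the lists are not reported here.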

Additional observations from a re-analysis of the deposited data

How the results depend on the processing

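In each of 15 alternative settings 0 members passed by limma, with adjusted p of at least 0.0689, and 22 of the 34 tested members kept their direction, among them all 8 whose genotypes did not overlap. The median log2 fold change of the members ran from -0.20 to 0.010 over these settings, both ends with a library left out. Members lower at an unadjusted p under 0.05 numbered 3 without Emp1-ko replicate 1, 3 without Emp1-fl replicate 1 and 7 without Emp1-ko replicate 2 (settings for these counts were chosen after seeing the data), and 1 was higher under quantile normalization. Of the related lists, 3 genes passed with at least 5 FPKM in 3 libraries (Nfic, Irf8 and Gp1ba), where 113 of all 10273 genes tested did. With array weights 2 passed, where 82 of all 15723 did, and among protein-coding genes 3, where 255 of all 13130 did. With a library left out 0 to 1 passed, where 5 to 40 of all 15723 did. Emp1 had an adjusted p of 0.0456 under array weights, at -1.52, and of 0.0179 in the protein-coding set, which needed 400 bp of exons, at -1.83. In the other 13 settings it did not pass, with adjusted p up to 0.188 (no filter), and its value ran from -2.55 with a pseudocount of 0.1 to -0.60 with a pseudocount of 5. It was kept in every fit whatever the filter.

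Directions that turned belong to members with a log2 fold change of at most 0.20 in size. Rescaled to TPM, the log2 fold changes of Pbx3, Erg and Myb were -0.011, -0.011 and -0.0043, and among protein-coding genes -0.014, -0.015 and -0.0078. With array weights Pbx3 was at -0.0032 and Gfi1b at 0.015. With libraries left out, the lowest and highest values were -0.35 and 0.089 for Gata2, -0.17 and 0.076 for Zbtb20, -0.27 and 0.029 for Nfia, -0.11 and 0.0081 for Etv6, -0.35 and 0.085 for Gfi1b, -0.26 and 0.083 for Nfe2, -0.071 and 0.16 for Pbx3, -0.088 and 0.15 for Ikzf2, -0.043 and 0.12 for Myb, -0.24 and 0.60 for Lmo2, -0.20 and 0.30 for Erg, and -0.056 and 0.21 for Ikzf1. The cause was not tested.

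All genes passing numbered 42 (25 higher and 17 lower), against 8 with the replicate block, 113 with the 5 FPKM filter, 255 in the protein-coding set (54 higher and 201 lower), 82 with array weights, 24 with quantile normalization, 15 with a pseudocount of 5, 5 with no filter and 5 to 40 with a library left out. With the replicate number as a block 0 members passed and 6 had an unadjusted p under 0.05. Same-numbered libraries deviated from their genotype means with correlations of -0.11, 0.086 and -0.052 across genes, so the numbers were not taken to pair the libraries. Tcf15, Gfi1 and Cebpa were under the filter, and the part of depth in their values was not tested.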
